A study of Mus musculus with 31 samples.

Results

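The collagen genes described here are the autosomal genes whose symbols have the form Col, a number, a and a number, such as Col1a1, each named for a chain of a numbered collagen type. Of 24470 gene symbols in the exon table, 42 matched. The 35 of them with at least 10 counts summed over the 6 RNA libraries are described, 1 transcript per symbol, namely the transcript with the highest total. The 7 others were Col13a1, Col19a1, Col22a1, Col26a1, Col6a6, Col9a1 and Col9a2. Nearest to the minimum were Col6a5 (21 counts) and Col6a4 (23.5) inside it, and Col6a6 (9) and Col9a2 (5.5) outside it. The X-linked pair Col4a5 and Col4a6 is not part of the set.

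Collagens are matrix proteins of 3 chains wound into a triple helix, and dermal fibroblasts are their main source in skin. Fibrillar types form the tensile fibres, type IV and the multiplexins belong to basement membranes, type VI forms beaded filaments, type VII forms anchoring fibrils, and fibril-associated (FACIT) types coat fibrils. Each chain is hydroxylated, folded and secreted as a procollagen, then trimmed and crosslinked outside the cell by enzymes that many types share.

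RNA was sequenced from dermal fibroblasts of female mice, a cross of CAST/Ei with 129/Sv/Jae, in 3 groups with 2 libraries each: wild type (WT) and 2 cell lines, line 1 and line 2, that lack Xist on the inactive X chromosome through a deletion. Xist is the RNA that silences that chromosome. All cells were differentiated, untreated and kept in the same medium, and the RNA was depleted of ribosomal RNA. The sources used here do not say whether each line grew from a single clone, so line, clone and culture cannot be told apart from the deletion. The labels call the 2 libraries of a group biological replicates without naming separate animals, so the p-values measure the spread between these libraries. Counts used per library ranged from 3.81 to 7.06 M (M, 1e+06 counts), and replicate 1 was the shallower of each group. Levels are given as CPM, counts per M counts of a library, scaled by the trimmed mean of M values, and between genes only as CPM per kilobase of transcript. Xist had 633 and 429 CPM for WT, 1.08 and 0.273 for line 1, and 0.969 and 0.282 for line 2 (replicates 1 and 2, the order used throughout).

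The starts of 7 collagen genes named in the results below are shown as a description: the Col4a1 and Col4a2 pair that shares a start region, Col1a2 as an abundant fibrillar chain, and Col5a3, Col11a1, Col18a1 and Col27a1, whose RNA differed between groups. Each window holds 250 bases before and 50 after the transcription start, 5′ to 3′ on the gene's strand, from RefSeq (GRCm38.p6). Capitals mark matches on either strand to the GC box, spelled GGGCGG, to the CAAT box, spelled CCAAT, and to the TATA box, spelled TATAAA. No match shown overlaps another.
Col4a1, chr8:11312777-11313076, minus strand: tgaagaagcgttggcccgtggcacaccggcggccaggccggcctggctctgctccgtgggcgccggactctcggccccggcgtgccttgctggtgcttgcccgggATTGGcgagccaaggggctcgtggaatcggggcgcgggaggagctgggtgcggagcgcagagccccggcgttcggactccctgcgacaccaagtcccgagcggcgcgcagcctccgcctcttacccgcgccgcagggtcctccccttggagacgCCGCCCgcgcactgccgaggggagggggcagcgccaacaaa
Col4a2, chr8:11312555-11312854, plus strand: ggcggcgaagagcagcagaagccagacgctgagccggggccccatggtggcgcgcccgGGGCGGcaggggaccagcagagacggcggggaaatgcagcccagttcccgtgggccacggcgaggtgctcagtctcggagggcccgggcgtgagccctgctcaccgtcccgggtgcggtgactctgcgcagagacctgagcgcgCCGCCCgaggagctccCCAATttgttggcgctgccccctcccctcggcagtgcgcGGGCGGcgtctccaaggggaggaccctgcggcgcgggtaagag
Col1a2, chr6:4505368-4505667, plus strand: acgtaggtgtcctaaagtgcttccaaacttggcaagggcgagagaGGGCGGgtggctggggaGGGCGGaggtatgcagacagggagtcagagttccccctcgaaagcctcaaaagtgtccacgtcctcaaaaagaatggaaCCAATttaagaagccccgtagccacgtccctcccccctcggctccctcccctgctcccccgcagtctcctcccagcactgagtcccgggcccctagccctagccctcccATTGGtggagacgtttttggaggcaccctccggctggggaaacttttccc
Col5a3, chr9:20815018-20815317, minus strand: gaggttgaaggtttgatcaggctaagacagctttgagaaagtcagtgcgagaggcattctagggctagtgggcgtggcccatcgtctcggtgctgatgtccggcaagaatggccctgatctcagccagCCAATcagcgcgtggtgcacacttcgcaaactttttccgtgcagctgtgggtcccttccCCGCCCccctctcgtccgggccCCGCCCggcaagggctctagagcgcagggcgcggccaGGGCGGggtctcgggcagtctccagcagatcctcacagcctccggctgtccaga
Col11a1, chr3:114030290-114030589, plus strand: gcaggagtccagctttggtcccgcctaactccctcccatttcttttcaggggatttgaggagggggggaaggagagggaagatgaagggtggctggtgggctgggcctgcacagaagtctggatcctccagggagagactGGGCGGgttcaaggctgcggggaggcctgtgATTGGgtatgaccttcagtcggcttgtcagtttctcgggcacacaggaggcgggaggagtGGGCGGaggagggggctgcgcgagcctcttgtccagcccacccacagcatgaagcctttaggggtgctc
Col18a1, chr10:77113656-77113955, minus strand: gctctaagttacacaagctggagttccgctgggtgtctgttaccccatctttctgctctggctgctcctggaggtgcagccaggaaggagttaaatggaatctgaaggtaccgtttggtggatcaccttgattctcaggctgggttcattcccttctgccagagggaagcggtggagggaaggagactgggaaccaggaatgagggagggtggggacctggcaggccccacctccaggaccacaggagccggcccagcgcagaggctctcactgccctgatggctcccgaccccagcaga
Col27a1, chr4:63215162-63215461, plus strand: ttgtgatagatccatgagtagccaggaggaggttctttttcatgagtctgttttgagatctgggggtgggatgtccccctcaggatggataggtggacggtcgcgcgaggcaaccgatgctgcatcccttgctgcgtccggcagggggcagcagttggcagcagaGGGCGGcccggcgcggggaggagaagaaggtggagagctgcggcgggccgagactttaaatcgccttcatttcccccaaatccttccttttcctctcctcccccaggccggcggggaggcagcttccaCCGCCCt

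Col4a1 and Col4a2 lie head to head on chromosome 8 with starts 21 bases apart, and their windows share 78 bases, read on opposite strands. Windows were found for 28 of the 35 genes. GGGCGG occurred in 17 of these 28 (60.7%) against 35.6% of 32817 windows, CCAAT in 10 (35.7%) against 37.4%, and TATAAA in 4 (14.3%, namely Col3a1, Col10a1, Col11a2 and Col17a1) against 13.6%. The median GC content was 60.0% in the collagen windows and 52.7% in all windows. Among the shown windows, Col5a3 held 3 GC boxes and Col11a1 2, as did Col1a2 and Col27a1, while Col18a1 held no match to any of the 3 motifs. For Col18a1 2 windows were listed, and the other is not shown. A match is a description of the letters and marks no tested site.

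Levels spanned from Col1a1, at 216 CPM per kilobase in WT, to Col6a5, listed at 0 in both WT libraries. The 12 most abundant genes in WT were the chains of types I, III, V, IV and VI, with the FACIT chains Col12a1 and Col16a1. Their mean levels in WT were 216 (Col1a1), 209 (Col1a2), 169 (Col6a1), 166 (Col4a1), 148 (Col4a2), 138 (Col6a2), 132 (Col5a1), 126 (Col3a1), 122 (Col5a2), 91.2 (Col6a3), 74.9 (Col12a1) and 65.7 (Col16a1) CPM per kilobase. Neighbours in this order mostly overlapped between their WT libraries, except that Col1a2 stood above Col6a1, Col5a2 above Col6a3 and Col6a3 above Col12a1. Below them came Col8a1 (57.6), Col11a1 (42.6) and Col5a3 (37.4), and after these a gap to Col7a1 (5.59). The other 19 members were at 3.51 CPM per kilobase or less in WT. The 35 genes together took 1.23% and 1.03% of the WT counts, 1.13% and 0.752% of those of line 1, and 1.36% and 1.11% of those of line 2.

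**Figure D1:**
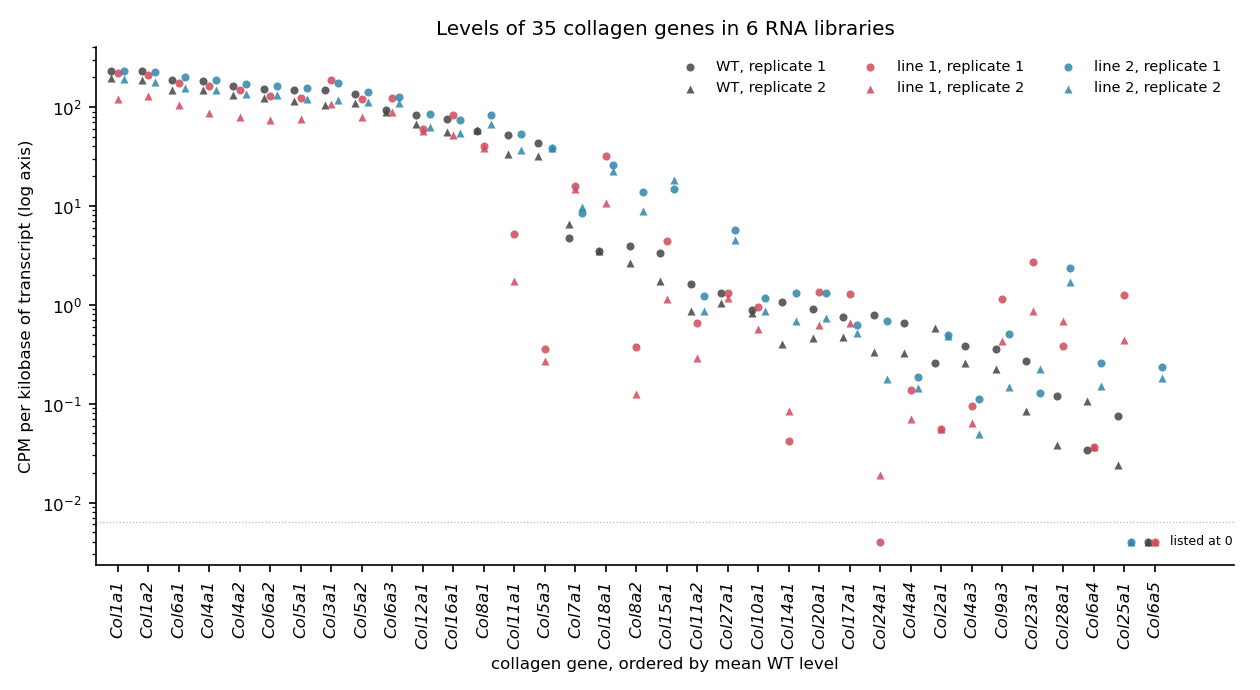
Level of each of the 35 collagen genes in the 6 libraries, in CPM per kilobase of transcript on a log axis, ordered by mean WT level; colour gives the group and shape the replicate. From Col1a1 to Col16a1 the groups lie close together, whereas Col5a3 and Col11a1 in line 1 sit far below WT and line 2; points under the dotted line are libraries listed at 0.

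Ratios per kilobase between abundant chains that can share a trimer varied little over the 6 libraries for types I, IV and V. Col1a1 to Col1a2, the chains of type I collagen, had a ratio of 0.943 to 1.07. Col4a1 to Col4a2 had 1.10 to 1.13, and Col5a1 to Col5a2 0.957 to 1.11. Col6a1 to Col6a2, of type VI, had 1.25 and 1.21 for WT, 1.37 and 1.43 for line 1, and 1.23 and 1.18 for line 2. Line 1 lay above both other groups in this ratio. Col6a3 to Col6a1, also of type VI, varied more, with 0.495 and 0.596 for WT, 0.698 and 0.863 for line 1, and 0.631 and 0.707 for line 2. Both lines lay above WT in that ratio. The minor chains departed from this in line 1. Col5a3 to Col5a1 was 0.291 and 0.275 for WT, 0.00289 and 0.00356 for line 1, and 0.244 and 0.323 for line 2. Col8a1 to Col8a2 was 14.4 and 22.1 for WT, 108 and 303 for line 1, and 6.01 and 7.58 for line 2. Col11a1 to Col11a2 was 31.9 and 39.0 for WT, 7.85 and 5.94 for line 1, and 44.0 and 42.2 for line 2.

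Of the 35 genes, 32 passed the filter on low counts and were tested, among 12910 genes in all. Col6a4, Col6a5 and Col9a3 did not pass it. A gene is called when its adjusted p is under 0.05 (edgeR quasi-likelihood test, Benjamini-Hochberg over all genes tested). In line 1 against WT 13 of 32 collagen genes were called, 5 higher and 8 lower, where 14.3% of all genes tested were called (6.75% higher and 7.55% lower). In line 2 against WT 3 of 32 were called, each higher, against 3.58% of all genes (1.73% higher and 1.85% lower). Between the lines 12 were called, 9 higher and 3 lower in line 2, against 12.6% of all genes (6.87% higher and 5.76% lower). Both comparisons with WT use the same 2 WT libraries. Col25a1, called in line 1 and between the lines, reached the minimum of 10 counts only through its line 1 counts. The filter asks for enough counts in at least 2 libraries. Both libraries of a group reached that level only in line 1 for Col23a1 and Col25a1, and only in WT for Col4a3, Col4a4 and Col24a1. For Col2a1 and Col28a1 they did so only in line 2. Calls of these genes that involve that group are therefore not independent of the filter. The median log2 fold change of the 32 genes was -0.32 in line 1 and 0.08 in line 2, against 0.01 over all genes in each. Differences between replicates correlated across the groups, so replicate number was also fitted as a block. With it the count in line 2 was 8 (6 higher and 2 lower) against 12.1% of all genes (5.87% higher and 6.25% lower). The block gave 18 genes in line 1 against 32.4% of all genes, and 17 between the lines against 27.2%. DESeq2 called 10, 5 and 11 collagen genes in the 3 comparisons, against 14.4%, 4.5% and 13.0% of all genes. The 2-library ranges did not overlap with WT for 16 of 32 genes in line 1 and 11 in line 2, against 51.0% and 48.8% of all genes, nor between the lines for 18, against 48.3%. These shares are near or below the background, or above it by little. Because the libraries are bulk RNA, fewer cells expressing a gene and less RNA per cell cannot be told apart.

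**Figure D2:**
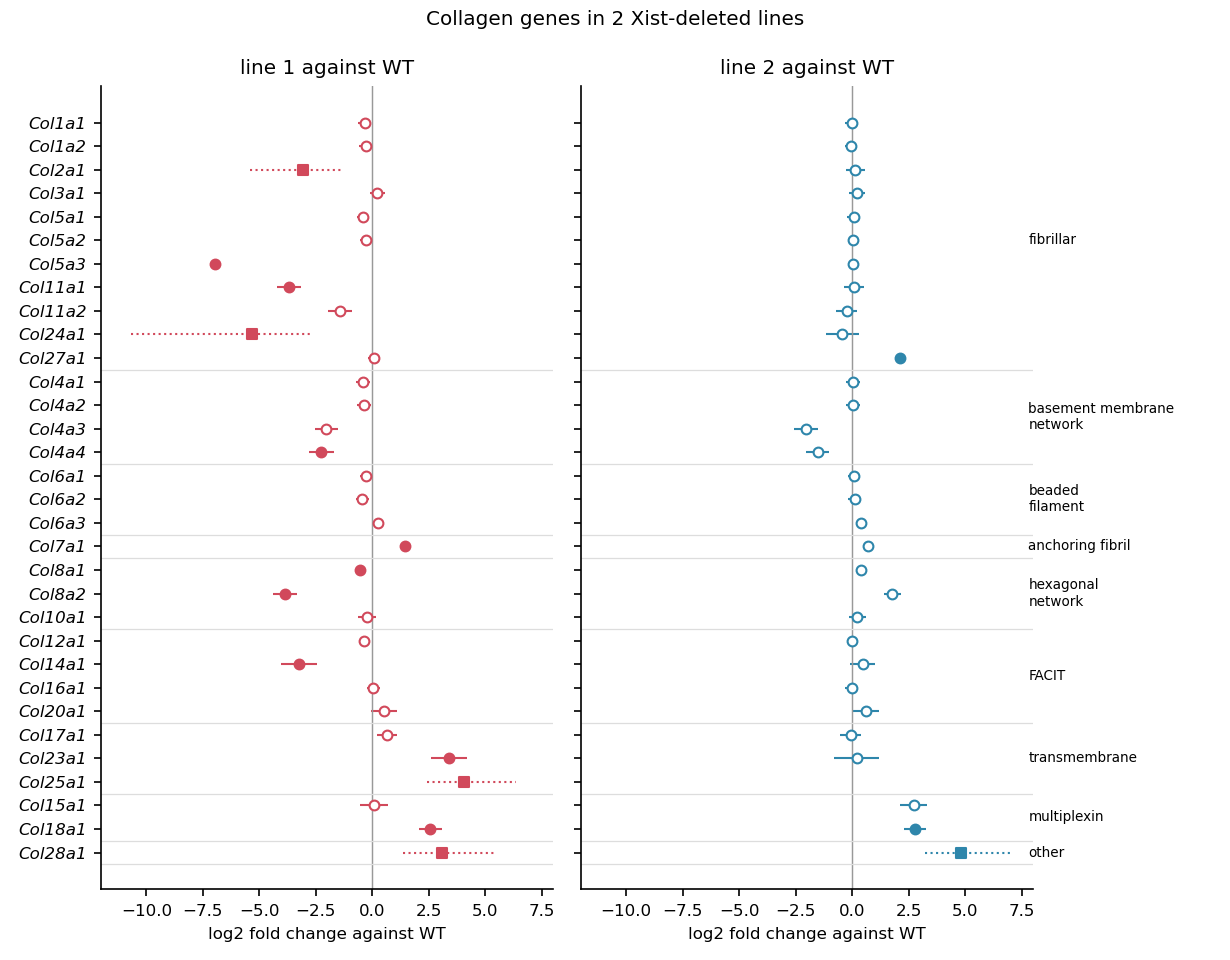
Log2 fold change of the 32 tested collagen genes in line 1 and in line 2 against WT, by structural class. Circles are fitted values with their standard error, filled where adjusted p is under 0.05; squares are called genes with 1 to 3 counts in a group, shown as ratios of counts with a dotted 95% counting interval, and Col25a1 in line 2 is left out because both groups had 3 counts or fewer. Line 1 shows 8 filled symbols left of 0 and 5 right of it, and line 2 shows 3, all to the right.

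Without the replicate block the 12 abundant genes were not called in any comparison (edgeR, 0 of 12; 0 at an unadjusted p under 0.05 and 0 with DESeq2). Their log2 fold changes ran from -0.45 to 0.23 in line 1, 9 of 12 below 0, and from -0.06 to 0.38 in line 2. Over the 12 genes the outer bounds of the 95% intervals were -1.18 and 1.05 in line 1, and -0.75 and 1.04 in line 2. Col1a1, the major chain of type I collagen, had 234 and 198 CPM per kilobase for WT, 219 and 121 for line 1, and 233 and 191 for line 2. Its lowest value was replicate 2 of line 1, and the ranges of the groups overlapped. The same library was the lowest of the 6 for Col1a2, Col4a1, Col4a2, Col5a1, Col5a2, Col6a1, Col6a2, Col12a1 and Col16a1. Without replicate 1 of line 1, the log2 fold changes of the 12 genes in line 1 ran from -0.95 (Col4a1) to -0.03 (Col6a3). Among them were -0.85 for Col1a1, -0.91 for Col4a2 and -0.92 for Col6a2. Without replicate 2 of line 1, the 12 genes ran from -0.11 (Col5a1) to 0.58 (Col3a1). There Col1a1, Col4a1, Col4a2 and Col6a2 had 0.02, -0.04, -0.01 and -0.09. With the replicate block, Col5a1 (log2 fold change -0.44, adjusted p = 0.0182), Col6a2 (-0.49, 0.0342) and Col12a1 (-0.34, 0.0392) were called lower in line 1. The block also called Col5a1 (0.51, adjusted p = 0.0119), Col5a2 (0.37, 0.0367) and Col6a2 (0.60, 0.0195) higher in line 2 than in line 1.

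Among the 11 fibrillar genes, 4 fell in line 1 and 1 rose in line 2. Of all genes tested, 7.55% were called lower in line 1 and 1.73% higher in line 2. Col5a3 encodes the third chain of type V collagen, which sets fibril diameter, and lies at chr9:20770057-20815067 (mm10, minus strand). It had 264 and 193 CPM for WT, 2.16 and 1.64 for line 1, and 234 and 237 for line 2. Both line 1 libraries lay far below the other 4, whose ranges overlapped. Col5a3 fell by 6.95 on the log2 scale in line 1 (SE 0.26, adjusted p = 0.000161), and in line 2 its log2 fold change was 0.04 (SE 0.17, adjusted p = 0.974). The partner chains Col5a1 and Col5a2 were at -0.42 and -0.29 in line 1 and were not called.

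Col11a1, a chain of type XI collagen that nucleates fibrils, lies at chr3:114030540-114220756 (plus strand). It had 398 and 258 CPM for WT, 40.0 and 13.4 for line 1, and 415 and 280 for line 2. The line 1 libraries were both below the rest, and WT and line 2 overlapped. Col11a1 fell by 3.69 on the log2 scale in line 1 (SE 0.53, adjusted p = 0.0075), with -4.62 without replicate 1 and -3.03 without replicate 2 of line 1. Its partner Col11a2 had 10.6 and 5.60 CPM for WT, 4.32 and 1.91 for line 1, and 8.00 and 5.64 for line 2. The line 1 values of Col11a2 lay below WT without being called (log2 fold change -1.44, adjusted p = 0.130), and were called with the replicate block (-1.42, adjusted p = 0.00841).

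Col2a1, the chain of cartilage type II collagen, was near the limit of detection. It had 4.5 and 17.5 counts for WT, 1 and 2 for line 1, and 9.5 and 16.5 for line 2. Line 1 was below both other groups, which overlapped. Its log2 ratio of line 1 to WT was -3.05 (95% counting interval -5.43 to -1.32; adjusted p = 0.0302). DESeq2 did not call it (adjusted p = 0.131), nor did edgeR without any 1 library other than replicate 1 of WT (adjusted p from 0.00474 to 0.246 over 12 alternatives). Col24a1, a minor fibrillar chain, had 22 and 14.5 counts for WT, 0 and 1 for line 1, and 19.5 and 8.5 for line 2. The log2 ratio of line 1 to WT was -5.32 (95% counting interval -10.66 to -2.75; adjusted p = 0.0430). The call of Col24a1 was lost without any 1 of the WT or line 1 libraries (adjusted p from 0.000492 to 0.143 over 13 alternatives).

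Col27a1, a fibrillar chain known from cartilage, lies at chr4:63215412-63334990 (plus strand). It had 10.1 and 8.00 CPM for WT, 10.0 and 8.87 for line 1, and 43.6 and 34.8 for line 2. Line 2 stood above the other 4 libraries, which overlapped. Col27a1 rose by 2.12 on the log2 scale in line 2 (SE 0.23, adjusted p = 0.0112), with 0.06 (SE 0.24, adjusted p = 0.915) in line 1. The call was lost without any 1 of the WT or line 2 libraries, at log2 fold changes of 1.95 to 2.29 and adjusted p from 0.0726 to 0.0990. Col3a1, the chain of the pliable fibres of skin, had 825 and 579 CPM in WT and a log2 fold change of 0.22 in each line (adjusted p = 0.760 and 0.894).

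In the basement membrane network, Col4a1 and Col4a2 form the common type IV trimer. Col4a1 had 184 and 148 CPM per kilobase for WT, 162 and 86.6 for line 1, and 187 and 150 for line 2. Col4a2 had 163 and 132, 147 and 78.8, and 169 and 137 in the same order. The pair had the same rank order of libraries, with replicate 2 of line 1 lowest. Col4a3 and Col4a4, chains of the specialised trimer of kidney and other filters, are also a head-to-head pair, on chromosome 1 with starts 72 bases apart. Col4a4 had 5.05 and 2.56 CPM for WT, 1.08 and 0.546 for line 1, and 1.45 and 1.13 for line 2. Both lines lay below WT. Col4a4 fell in line 1 (log2 fold change -2.27, SE 0.55, adjusted p = 0.0430), whereas in line 2 it was called only with the replicate block (-1.53, adjusted p = 0.218; with the block -1.46, 0.0329). The line 1 call was lost with DESeq2, with the 2 groups alone and without any 1 library other than replicate 1 of line 1 (adjusted p from 0.00520 to 0.206 over 13 alternatives). Col4a3 had 3.28 and 2.24 CPM for WT, 0.811 and 0.546 for line 1, and 0.969 and 0.423 for line 2. It too was below WT in all 4 libraries of the lines, at -2.03 (adjusted p = 0.0507) and -2.04 (adjusted p = 0.112), and was called in each with the replicate block (adjusted p = 0.00965 and 0.0198).

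The beaded filament chains of type VI, which link cells to the fibrillar matrix, were not called. Col6a3, the longest chain, had 93.1 and 89.3 CPM per kilobase for WT, 123 and 90.0 for line 1, and 128 and 110 for line 2. Line 2 was above WT with no overlap, at a log2 fold change of 0.38 (SE 0.20, adjusted p = 0.496). Col6a5 was listed at 0 counts in all WT and line 1 libraries and had 9 and 12 counts in line 2. That is at least 6.37-fold higher than WT when the group's floor is set at 3 counts. Col6a5 reached the minimum count for the set only through line 2, so this bound is not independent of that minimum. Its neighbour Col6a4 had 0.5 and 4.5 counts for WT, 1 and 2 for line 1, and 7.5 and 8 for line 2. Col6a4, Col6a5 and Col6a6 lie side by side on chromosome 9. Neither Col6a4 nor Col6a5 passed the filter, so no test was made.

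Col7a1, the chain of the anchoring fibrils that fasten epidermis to dermis, lies at chr9:108953745-108984875 (plus strand) and was higher in line 1. It had 43.2 and 59.7 CPM for WT, 147 and 135 for line 1, and 77.5 and 88.7 for line 2. The 3 groups did not overlap, with line 2 between WT and line 1. Col7a1 rose by 1.44 on the log2 scale in line 1 (SE 0.18, adjusted p = 0.00466). In line 2 its log2 fold change was 0.69 (SE 0.18, adjusted p = 0.124), called with the replicate block (0.68, adjusted p = 0.0293).

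Of the hexagonal network genes, Col8a1 and Col8a2 encode the chains of type VIII collagen of vessels and the cornea. Col8a2, at chr4:126286794-126314330 (plus strand), had 17.2 and 11.4 CPM for WT, 1.62 and 0.546 for line 1, and 59.4 and 38.2 for line 2. No groups overlapped: line 1 was lowest and line 2 highest. It fell by 3.88 on the log2 scale in line 1 (SE 0.54, adjusted p = 0.00666), with -4.63 without replicate 1 and -3.09 without replicate 2 of line 1. In line 2 it was at 1.78 (SE 0.37, adjusted p = 0.0605), and was called with the replicate block (1.77, adjusted p = 0.00144) and with DESeq2 (adjusted p = 0.00111). Col8a1, the more abundant chain, had 292 and 296 CPM for WT, 207 and 195 for line 1, and 421 and 342 for line 2. Its groups had the same order and did not overlap. Col8a1 fell in line 1 (log2 fold change -0.55, SE 0.14, adjusted p = 0.0486), a call lost without any 1 of the 6 libraries and with the 2 groups alone (adjusted p from 0.00619 to 0.236 over 13 alternatives). In line 2 it was not called (0.37, SE 0.14, adjusted p = 0.277). Col10a1, the chain of hypertrophic cartilage, lies within Nt5dc1 on the opposite strand, had 1.77 to 3.63 CPM in the 6 libraries and was not called.

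**Figure D3:**
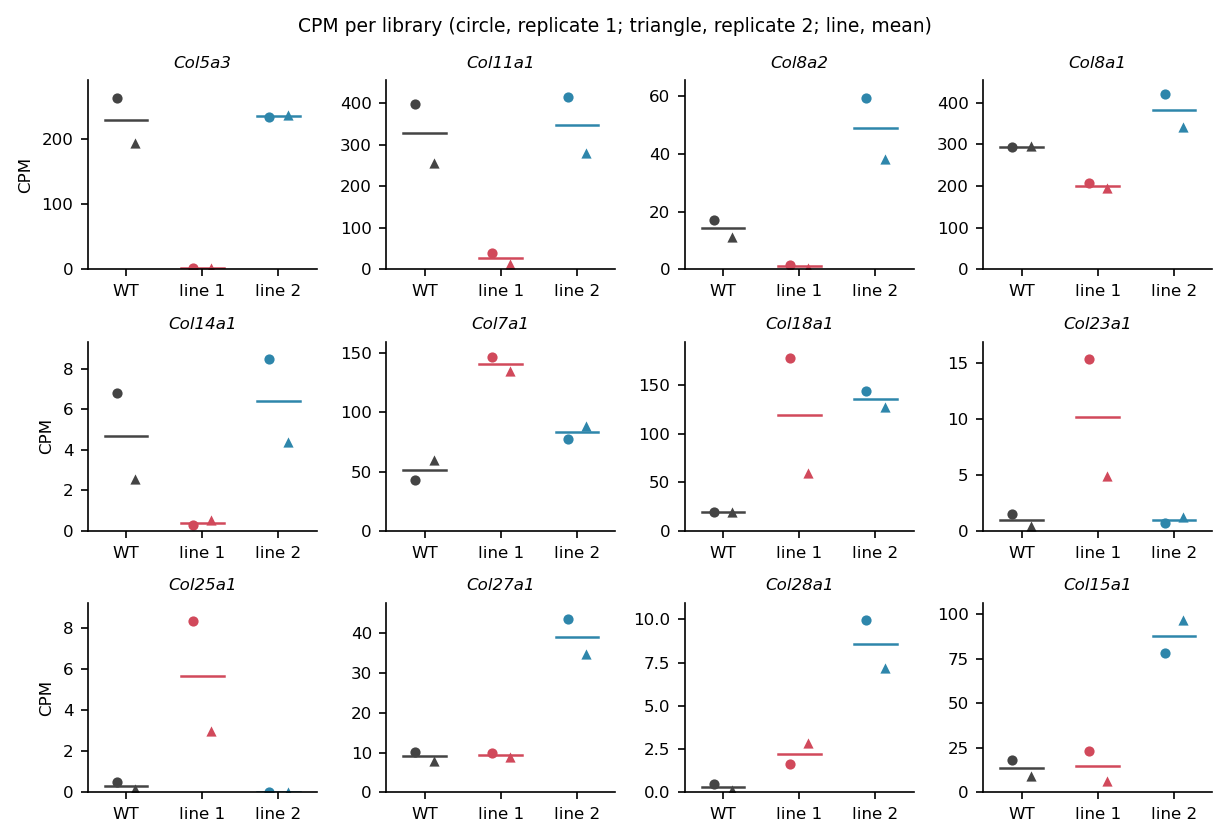
CPM of 12 collagen genes in each library; circles are replicate 1, triangles replicate 2 and lines the mean of a group (n = 2), with each vertical axis starting at 0. Col5a3, Col11a1 and Col8a2 are near the axis in line 1, Col7a1 is highest in line 1, Col18a1 is higher in both lines than in WT, and Col27a1 and Col15a1 are highest in line 2.

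Among the FACIT genes, Col14a1, whose product binds the surface of fibrils, was lower in line 1. It had 6.82 and 2.56 CPM for WT, 0.270 and 0.546 for line 1, and 8.48 and 4.37 for line 2. Both line 1 libraries were below the other 4, and WT and line 2 overlapped. Col14a1 fell by 3.26 on the log2 scale in line 1 (SE 0.79, adjusted p = 0.0429), a call lost with the 2 groups alone and without any 1 library other than replicate 2 of WT (adjusted p from 0.000797 to 0.150 over 13 alternatives). In line 2 it was 0.47 (SE 0.55, adjusted p = 0.839). Col12a1, which coats type I fibrils, had 971 and 784 CPM in WT and 707 and 664 in line 1, with no overlap and no call (-0.36, adjusted p = 0.329). Col20a1 was at 1.92 to 5.68 CPM and was not called. Col9a3, a chain of cartilage type IX collagen, was untested, at 4 and 4 counts for WT, 12 and 9 for line 1, and 5.5 and 2.5 for line 2.

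Of the 3 transmembrane collagens tested, Col23a1 and Col25a1 were called higher in line 1, where 6.75% of all genes were called higher. Both passed the filter on low counts only through line 1, so their number cannot be set against that share. Col23a1, at chr11:51289920-51583925 (plus strand), had 1.52 and 0.480 CPM for WT, 15.4 and 4.91 for line 1, and 0.727 and 1.27 for line 2. The line 1 libraries stood above the other 4, which overlapped. Col23a1 rose by 3.39 on the log2 scale in line 1 (SE 0.79, adjusted p = 0.0370). Its value was 2.42 without replicate 1 of line 1, and the call was lost without any 1 of the WT or line 2 libraries and with the 2 groups alone (adjusted p from 0.000259 to 0.207 over 13 alternatives). Col25a1, a membrane collagen known from neurons, had 1.5 and 1 counts for WT, 31 and 22 for line 1, and 0 and 0 for line 2. The log2 ratio of line 1 to WT was 4.03 (95% counting interval 2.41 to 6.35; adjusted p = 0.0397). This call was lost without either WT library (adjusted p from 0.000314 to 0.219 over 13 alternatives). Col17a1, the hemidesmosome collagen of keratinocytes, was at 2.56 to 7.03 CPM and was not called.

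The multiplexins Col15a1 and Col18a1 encode basement membrane collagens that carry heparan or chondroitin sulfate chains, and endostatin is cut from the end of the Col18a1 product. Col18a1, at chr10:77052179-77113705 (minus strand), had 19.7 and 19.8 CPM for WT, 178 and 60.1 for line 1, and 144 and 128 for line 2. All 4 libraries of the lines were above WT. Col18a1 rose in line 1 by 2.57 on the log2 scale (SE 0.50, adjusted p = 0.0215). Its rise in line 2 was 2.78 (SE 0.50, adjusted p = 0.0426). The line 1 value was 1.59 without replicate 1 and 3.17 without replicate 2 of line 1. The line 1 call was lost without either WT library (adjusted p up to 0.109), and the line 2 call without any 1 of the WT or line 2 libraries (adjusted p from 0.172 to 0.218). Col15a1 had 17.9 and 9.28 CPM for WT, 23.5 and 6.14 for line 1, and 78.5 and 96.7 for line 2. Line 2 was above the other 4 libraries. Its log2 fold change in line 2 was 2.72 (SE 0.60, adjusted p = 0.0742), and it was called with the replicate block (2.81, adjusted p = 0.0109) and with DESeq2 (adjusted p = 1.99e-05).

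Col28a1, a collagen with von Willebrand factor A domains that is known from peripheral nerve, was higher in both lines. It lies at chr6:7997808-8192617 (minus strand) and had 1.5 and 1 counts for WT, 5.5 and 21 for line 1, and 41 and 51 for line 2. In CPM the groups did not overlap, and line 2 was highest. The log2 ratio to WT was 3.06 in line 1 (95% counting interval 1.36 to 5.42; adjusted p = 0.0347) and 4.80 in line 2 (3.21 to 7.11; adjusted p = 0.0142). The line 1 call was lost with DESeq2 (adjusted p = 0.0569) and without any 1 library other than replicate 1 of line 1 (adjusted p up to 0.251). The line 2 call was lost without any 1 of the WT or line 2 libraries (adjusted p from 0.0824 to 0.130). Markers of Schwann cells and melanocytes, with Dct at 0, summed to 18.9 and 23.7 CPM in WT, 63.3 to 66.2 in line 1 and 14.8 to 19.1 in line 2. Most of the difference was Mitf, at 11.6 and 9.44 CPM for WT, 55.4 and 54.5 for line 1, and 8.00 and 6.49 for line 2, while the Schwann marker Sox10 was at 0 to 0.320. Their part in this result was not tested.

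The lines were then compared directly, which is the test of whether their collagen levels differ. Of the 12 genes called, Col5a3 (log2 line 2 minus line 1 of 6.99, SE 0.26, adjusted p = 0.000214), Col8a2 (5.66, SE 0.51, 0.00177), Col11a1 (3.77, SE 0.53, 0.00734) and Col27a1 (2.06, SE 0.23, 0.00335) were higher in line 2 in the reported fit and in each of the 13 alternatives. Col8a1 was also higher in line 2 (0.92, SE 0.14, adjusted p = 0.00910), a call lost without replicate 1 of line 2 (adjusted p = 0.0638; from 9.01e-06 to 0.0638 over 13 alternatives). Col15a1 was higher by 2.65 (SE 0.60, adjusted p = 0.0376), with 1.90 without replicate 2 and 3.84 without replicate 1 of line 1, and lost its call without either line 2 library (adjusted p up to 0.162). Col14a1 was higher by 3.74 (SE 0.76, adjusted p = 0.0268), and the counts of Col2a1 differed by a log2 ratio of 3.14 (1.44 to 5.51 as its 95% counting interval; adjusted p = 0.0264). Both of these calls were lost without any 1 library of either line, and that of Col2a1 also with DESeq2 (adjusted p = 0.102).

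Col28a1 was higher in line 2 by 1.83 (SE 0.41, adjusted p = 0.0347), a call lost with DESeq2, with the 2 groups alone and without any 1 library other than replicate 2 of line 1 (adjusted p up to 0.199). In the other direction, Col7a1 was lower in line 2 than in line 1 (-0.76, SE 0.18, adjusted p = 0.0414), which was lost without any 1 library of either line (adjusted p up to 0.252). Col23a1 was lower by 3.19 on the log2 scale (-3.19, SE 0.75, adjusted p = 0.0421), with -2.19 without replicate 1 of line 1, and was lost with the 2 groups alone and without any 1 library other than replicate 2 of line 1 (adjusted p up to 0.201). Col25a1 was at least 18-fold lower in line 2, where no count was seen, than in line 1 (adjusted p = 0.0221), and lost its call without either line 2 library (adjusted p up to 0.101). Col18a1 had a difference of 0.21 (SE 0.45, 95% interval -0.88 to 1.30, adjusted p = 0.863) and was not called. With the replicate block, Col24a1 (log2 ratio of counts 4.83, 95% counting interval 2.24 to 10.18; adjusted p = 0.0711; with the block 0.00592, with DESeq2 0.0234) and Col11a2 (adjusted p = 0.227; with the block 1.22, 0.0169) were also called higher in line 2 than in line 1, as were Col5a1, Col5a2 and Col6a2 with the values given above.

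A further feature ran through the set in every group. Replicate 2 was lower than replicate 1 for 28 of 32 genes in WT (median log2 difference -0.40), 28 in line 1 (-0.72) and 27 in line 2 (-0.32), and all 12 abundant genes were lower in replicate 2 in each group. Over all genes tested, 49.6%, 51.8% and 49.3% were lower in replicate 2, with medians of 0.00, -0.03 and 0.00. Replicate 2 was also the deeper library of each group, with counts used of 6.21, 7.06 and 6.96 M against 4.06, 3.81 and 4.19 M. In the abundant collagens counts lay at 0.223 to 1.36 per base of transcript, against medians of 0.0631 to 0.133 over all genes tested. Among the 359 genes with at least 0.5 counts per base in WT, the median difference of replicate 2 from replicate 1 was -0.15 for WT, -0.39 for line 1 and -0.20 for line 2, and for the 9 collagens among them it was -0.30, -0.82 and -0.33. In the sparsest bin, under 0.05 counts per base, the medians of all genes were 0.01, 0.00 and 0.03, and those of the 17 collagens there -0.61, -0.61 and -0.32. The part of depth in this difference was not tested.

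**Figure D4:**
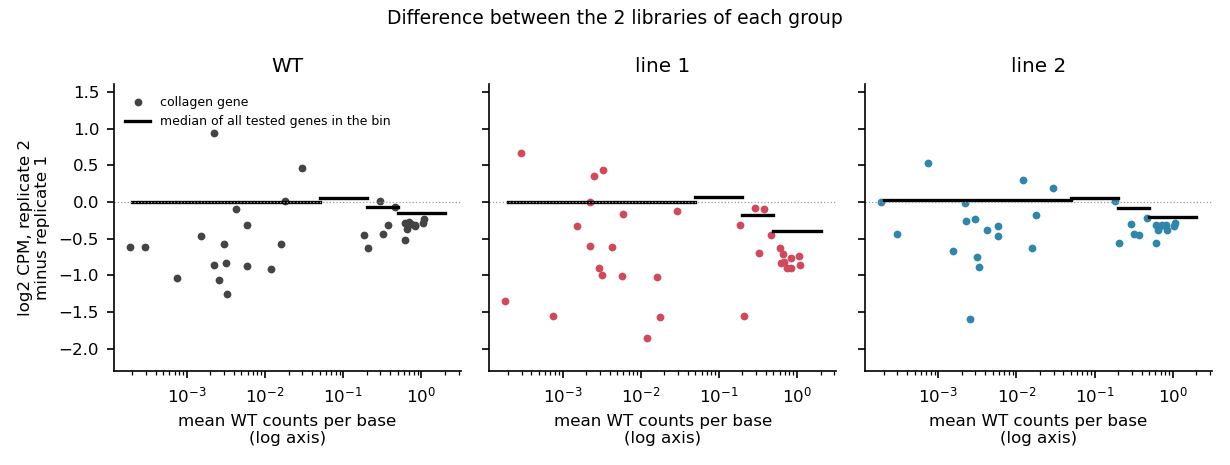
Log2 CPM of replicate 2 minus replicate 1 for each tested collagen gene against its mean WT counts per base of transcript (log axis), by group, with black bars for the median of all tested genes in each of 4 density bins. Most collagen points lie below 0 in all 3 panels, and the median bars fall below 0 in the 2 densest bins.

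Of the other genes of collagen synthesis, assembly, binding and breakdown, 111 genes in 9 lists, 100 were tested. In line 1, 27 of these were called, 9 higher and 18 lower, in line 2 4 were called, 3 higher and 1 lower, and between the lines 34 were called, 24 higher and 10 lower in line 2. The backgrounds, for these counts and for those of each list below, are the 14.3%, 3.58% and 12.6% given above. With the replicate block these counts were 55, 21 and 58, where 32.4%, 12.1% and 27.2% of all genes were called. The median log2 fold change of the 100 genes was -0.17 in line 1 and 0.03 in line 2.

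The genes of chain modification held 3 of 14 lower in line 1. P4ha3, a prolyl 4-hydroxylase subunit, had 142 and 150 CPM for WT, 23.2 and 11.5 for line 1, and 98.8 and 88.4 for line 2, and fell by 3.13 on the log2 scale in line 1 (adjusted p = 0.00208). Line 1 was lowest and no groups overlapped. P3h2, a prolyl 3-hydroxylase that acts on basement membrane collagen, fell by 2.38 (adjusted p = 0.00279), and Plod2, the lysyl hydroxylase of telopeptides, by 0.77 (adjusted p = 0.0425). The Plod2 call was lost with the 2 groups alone and without any 1 of the WT or line 2 libraries (adjusted p up to 0.224), and its log2 fold change ran from -1.05 without replicate 2 to -0.55 without replicate 1 of line 1. Of the 12 genes of folding and secretion, which include the collagen chaperone Serpinh1, 0 were called in line 1 and 0 in line 2 (edgeR; 1 and 0 at an unadjusted p under 0.05, 0 and 0 with DESeq2). With the replicate block 4 of the 12 were called lower in line 1, where 32.4% of all genes were called in either direction. Serpinh1 was among the 4 (log2 fold change -0.42, adjusted p = 0.308, and 0.0417 with the block).

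Of 6 genes of propeptide processing, Adamts2, the protease that removes the amino propeptide of fibrillar chains, rose in both lines. It had 57.9 and 48.8 CPM for WT, 127 and 94.6 for line 1, and 254 and 236 for line 2, with log2 fold changes of 1.05 (adjusted p = 0.0132) and 2.21 (adjusted p = 0.00609). The groups did not overlap. The Adamts2 call in line 1 was lost without either WT library (adjusted p up to 0.0888), and that in line 2 without replicate 2 of WT (adjusted p = 0.0501). Tll1, a carboxy propeptide protease, fell in line 1 (-1.85, adjusted p = 0.0148). Of 5 crosslinking genes only Loxl4, a lysyl oxidase, was called in line 1 (-0.85, adjusted p = 0.0102), while Lox itself was at -0.04 (adjusted p = 0.902). Without replicate 2 of WT, Tll1 (adjusted p = 0.0948) and Loxl4 (adjusted p = 0.0910) were no longer called.

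Among 15 genes of fibril-associated proteins, 4 fell and 1 rose in line 1. The small leucine-rich proteins Fmod, Prelp and Ogn, which bind fibrils, fell, with log2 fold changes of -3.75, -3.20 and -2.56 (adjusted p = 0.00657, 0.0136 and 0.00464). Leaving out replicate 1 or replicate 2 of line 1 gave -4.39 or -3.03 for Fmod, and -3.87 or -2.48 for Prelp, whose call was lost in the latter case (adjusted p = 0.0569). Dcn, the decorin gene, had 61.9 and 26.9 CPM for WT, 243 and 156 for line 1, and 28.6 and 19.7 for line 2, and rose by 2.19 in line 1 (adjusted p = 0.0215). Line 1 was above the other 4 libraries. The Dcn value was 2.88 without replicate 1 of WT and 1.70 without replicate 2 of WT, where the call was lost (adjusted p = 0.0586). Of 9 receptor and uptake genes, Mcam, an adhesion molecule that binds laminin, and Itga1, a collagen-binding integrin chain, fell by 4.02 and 2.38 in line 1 (adjusted p = 0.000444 and 0.00158). Itga10, another such chain, rose by 3.14 (adjusted p = 0.00232).

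Of 15 genes of the TGF-beta axis, which drives collagen transcription, 4 fell and 1 rose in line 1. Tgfb2, a ligand, had 56.3 and 84.2 CPM for WT, 5.68 and 0.955 for line 1, and 80.0 and 103 for line 2, and fell by 4.67 (adjusted p = 0.00541). The line 1 libraries lay below the other 4, and the log2 fold change was -6.19 without replicate 1 and -3.64 without replicate 2 of line 1. Ctgf, a target of the pathway, fell by 2.04 (adjusted p = 0.0137), Ltbp2, a matrix protein of the latent TGF-beta binding family, by 0.85 (adjusted p = 0.00796), and Tgfbr3, a co-receptor, rose by 0.96 (adjusted p = 0.0200). Ctgf lost its call without either WT library (adjusted p up to 0.0669) and was at -2.82 without replicate 2 of line 1. The calls of Ltbp2 and Tgfbr3 were lost without replicate 2 of WT (adjusted p = 0.0816 and 0.0911). Of 12 basement membrane partners, Nid2, a linker of laminin to type IV collagen, fell by 4.85 in line 1 (adjusted p = 0.00324), Lama5, a laminin chain, fell by 2.96 (adjusted p = 0.00899), and the laminin chain Lama2 rose by 1.05 (adjusted p = 0.0142). Without replicate 1 or replicate 2 of line 1, Nid2 was at -6.20 or -3.91 and Lama5 at -3.64 or -2.34. Lama2 was no longer called without either WT library (adjusted p up to 0.0948).

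Of 12 peptidases that break down collagen, 4 rose and 1 fell in line 1, and 1 rose and 1 fell in line 2. Mmp3, stromelysin, had 0.758 and 0.960 CPM for WT, 49.7 and 141 for line 1, and none for line 2, and rose by 6.74 in line 1 (adjusted p = 0.00541; 5.78 without replicate 2 of line 1). Mmp2, a gelatinase, had 93.5 and 55.5 CPM for WT, 468 and 295 for line 1, and 258 and 187 for line 2. It rose in line 1 (2.36, adjusted p = 0.00775) and was not called in line 2 (1.59, adjusted p = 0.0654; with the block 0.000472). Mmp15, a membrane-bound metalloproteinase, fell by 3.27 in line 1 (adjusted p = 0.00197). Ctsk, the cathepsin that cleaves triple helices, had 37.9 and 43.5 CPM for WT, 45.4 and 37.9 for line 1, and 2.91 and 5.22 for line 2, and fell by 3.26 in line 2 (adjusted p = 0.00719), a call lost without replicate 2 of WT (adjusted p = 0.0501).

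**Figure D5:**
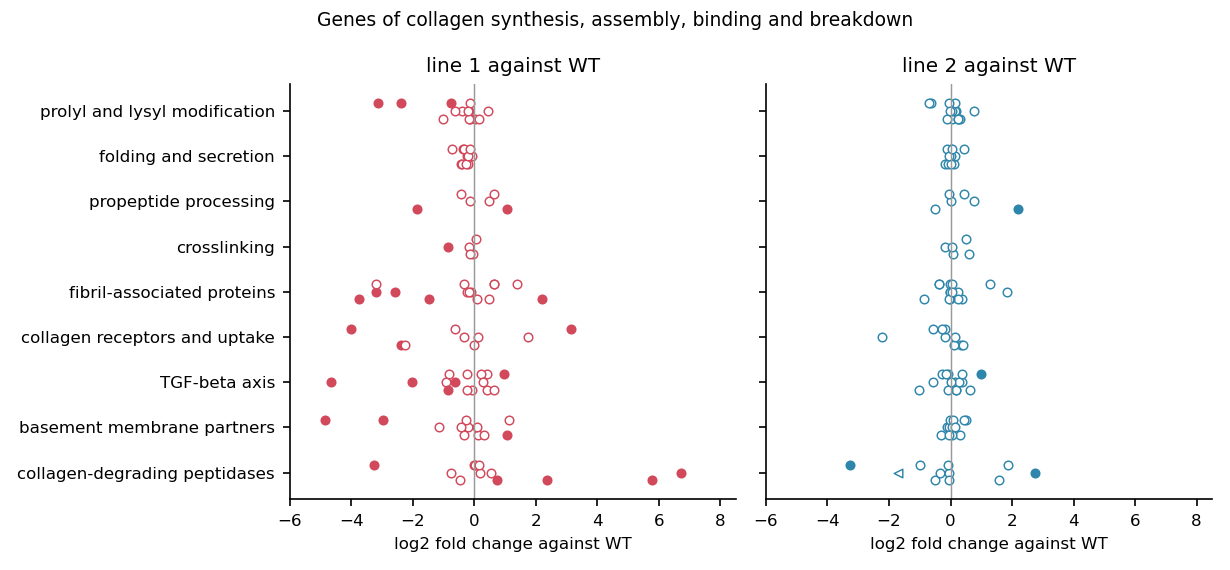
Log2 fold change of the tested genes of the 9 lists in line 1 and line 2 against WT, 1 circle per gene and filled where adjusted p is under 0.05; a triangle marks a bound against the 3-count floor. In line 1 filled symbols stand on both sides of 0 in 6 of the 9 lists, and in line 2 there are 4 filled symbols in all.

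Markers of other cell types were set beside these results. Fibroblast markers, none of 10 at 0, summed to 1609 to 1782 CPM in WT, 1710 to 2241 in line 1 and 1675 to 1853 in line 2. Of them Dcn and Twist2 were called higher in line 1 and Cd34 in line 2 (1.39, adjusted p = 0.0268). None was called lower in either line, and Lum was at only 0.141 to 5.14 CPM. Over the 6 libraries keratinocyte markers summed to 0.141 to 1.44 CPM, leukocyte markers to 8.73 to 22.6 and adipocyte markers to 32.1 to 58.2. Of the leukocyte markers, Lyz2 was called lower in line 1. Cd68 went the other way, at 2.27 and 2.08 CPM for WT and 13.0 and 4.91 for line 1. Cd68 was not called in the reported edgeR fit (log2 fold change 1.98, adjusted p = 0.0605). It was called higher in line 1 with the replicate block (1.86, adjusted p = 0.0105) and with DESeq2 (adjusted p = 0.0480). Endothelial markers summed to 7.58 to 8.64 CPM in WT, 2.43 to 3.28 in line 1 and 5.92 to 6.78 in line 2. Most of the WT sum was Kdr, a receptor of vascular growth factors, at 5.81 and 7.20 CPM for WT, none for line 1, and 1.21 and 0.564 for line 2. Kdr was called lower in line 1 (at least 24.5-fold, adjusted p = 0.00445) and in line 2 (-2.96, adjusted p = 0.0392). Not every endothelial marker followed Kdr. Cdh5, untested, had 0 CPM in both WT libraries, 0 and 2.05 for line 1, and 0.242 and 0.141 for line 2. Smooth muscle and pericyte markers, with Abcc9 at 0, summed to 596 to 665 CPM in WT, 313 to 400 in line 1 and 343 to 351 in line 2. The genes behind the lower sums differed: Acta2, smooth muscle actin, fell in line 1 (-1.25, adjusted p = 0.00147; line 2 -0.12, adjusted p = 0.767) and Cspg4, a pericyte proteoglycan, fell in line 2 (-3.91, adjusted p = 0.00875; line 1 -0.43, adjusted p = 0.470), and both differed between the lines (adjusted p = 0.00206 and 0.00287). Chondrocyte markers, with Cnmd at 0, summed to 42.9 to 56.6 in WT, 77.1 to 144 in line 1 and 85.4 to 94.2 in line 2, beside the values of Col2a1, Col9a3, Col11a1 and Col27a1. Most of the sum was Sox9, at 54.1 and 39.7 CPM for WT, 143 and 76.2 for line 1, and 80.7 and 59.4 for line 2. Not every member followed it, and the median log2 fold change of the 2 tested members was -0.61 in line 1. Acan, the cartilage proteoglycan aggrecan, had 0.758 and 0.480 CPM for WT, 0 and 0.136 for line 1, and 10.4 and 23.0 for line 2. It rose in line 2 (4.79, adjusted p = 0.0163) and differed between the lines (log2 ratio of counts 7.66, 95% counting interval 5.17 to 12.97; adjusted p = 0.00320). Matn3, untested, had 0.505 and 1.28 CPM for WT, 0.270 and 0.136 for line 1, and 1.94 and 2.26 for line 2. Osteoblast markers summed to 75.0 to 93.0 in WT, 158 to 190 in line 1 and 74.2 to 75.3 in line 2, with Phex at 4.80 and 11.8 CPM for WT and 57.0 and 73.6 for line 1. The part of these cell types in the collagen results was not tested.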

How the data were processed

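RNA-seq libraries of 6 samples were used, 2 each of WT, line 1 and line 2; the other 25 samples of the series, ATAC-seq and ChIP-seq, were not used here. Per the file headers, the authors counted reads over exons of RefSeq transcripts with HOMER without normalization, and the deposited values are expected counts in steps of 0.5. The submitters' processing notes also name Trim Galore 0.4.1, TopHat2, SAMtools, bedtools 2.25.0 and mm10; strand use in counting and the handling of duplicates are not stated in these sources, so genes that overlap on opposite strands are uncertain. The design assumed whole counts; the values were rounded, with 0.5 rounded up.

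Of 28972 transcripts, 4502 were dropped in favour of the transcript with the highest total per symbol, which left 24470. The quasi-likelihood test of edgeR 4.0.16 (R 4.3.3) was fitted once to the 6 libraries, with group means as the design, TMM scaling and 3 residual degrees of freedom, after filterByExpr had kept 12910 genes. Header totals were 10.5 to 20.1 M per library (M, 1e+06 counts). Named were collagens called in any comparison with or without the replicate block, the 12 most abundant, those not overlapping with WT, and up to 4 called genes per list. A group with 0 counts is given as a bound against 3 counts over the group, and 1 to 3 counts as a ratio with a 95% interval that covers counting error only. Differences of replicate 2 from replicate 1 correlated between groups across genes (Pearson 0.54, 0.594 and 0.528 over 12910 genes, which are not independent), so replicate number was fitted as a block. The labels do not say why they correlate. Replicate 2 was the deeper library of each group, and the part of depth was not tested. The members and lists were chosen with earlier results of these data known. Alternatives were DESeq2 1.42.0, RLE scaling, no filter, the block, the longest transcript, 2 groups alone, each library left out and, chosen after seeing the data, unrounded values. The script was tested on simulated data.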

Additional observations from a re-analysis of the deposited data

Results flagged for a closer look

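In 12 collagen genes the level in line 2 differed from that in line 1 by a test of the difference itself (edgeR, adjusted p under 0.05, 12.6% of all genes tested). Of these, only Col5a3, Col8a2, Col11a1 and Col27a1 were called in each alternative, as given above. The log2 difference, line 2 minus line 1, was 6.99 for Col5a3, 5.66 for Col8a2, 3.77 for Col11a1, 3.74 for Col14a1, 2.65 for Col15a1, 2.06 for Col27a1, 1.83 for Col28a1 and 0.92 for Col8a1. For Col2a1 the log2 ratio of counts was 3.14. The difference was negative for Col23a1 (-3.19) and Col7a1 (-0.76), and for Col25a1 it was -4.17 or beyond, a bound against 3 counts.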

How the results depend on the processing

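With 1 library left out, 5 to 13 collagen genes were called in line 1 against WT, 0 to 6 in line 2 against WT and 4 to 12 between the lines, beside 13, 3 and 12 in the reported fit. In the same fits 5.52% to 17.6%, 0.177% to 5.99% and 4.61% to 14.8% of all genes were called, beside 14.3%, 3.58% and 12.6%. The 0 in line 2 arose without either WT or either line 2 library (edgeR; 6 to 8 genes at an unadjusted p under 0.05), where 0.177% to 0.386% of all genes were called. The 5 in line 1 arose without either WT library (5.76% and 5.52% of all genes), and the 4 between the lines without replicate 1 of line 2 (5.24%). Each such fit has fewer samples and assumes that a lone library varies like the other groups. Fitting 2 groups alone gave 7 in line 1 (9.93% of all genes) and 5 in line 2 (6.27%). In line 2, DESeq2 gave 5 (4.5%) and no filter gave 8 (4.84%). With replicate number as a block, pairing the libraries, line 2 gave 8 collagen genes (12.1%), and the synthesis and receptor genes 55 in line 1, 21 in line 2 and 58 between the lines, beside 27, 4 and 34, with 32.4%, 12.1% and 27.2% of all genes called. For the latter genes no filter gave 47 in line 1 (13.6%) and 11 in line 2 (4.84%), DESeq2 8 (4.5%) and the 2 groups alone 11 in line 2 (6.27%). Leaving out 1 library gave 16 to 38, 0 to 10 and 13 to 40; the 0 arose without replicate 2 of WT (17 at an unadjusted p under 0.05). The block changed no call of a collagen gene from called to not called. No gene named here reversed its direction where called, and RLE scaling or the longest transcript changed no call among the named collagens. Scaling moved the median of all genes by under 0.1. With few counts, Col2a1, Col4a3, Col4a4, Col14a1, Col23a1, Col24a1, Col25a1 and Col28a1 are the least certain.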
